A study of Mus musculus with 20 samples.

Results

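The 9 genes described here encode the parts of the death receptor and necroptosis pathways of the mouse. They are the receptor genes *Fas*, *Tnfrsf10b* and *Tnfrsf1a*, the adaptor gene *Fadd*, the initiator caspase gene *Casp8*, its inhibitor *Cflar*, the kinase genes *Ripk1* and *Ripk3*, and *Mlkl*, which encodes the executioner of necroptosis. They were picked by gene symbol from a table of 25869 mouse genes with Entrez identifiers, and all 9 were found in it. In the lymphoma lines of the study, transcripts of the 3 receptor genes and of *Mlkl* were at or near 0. *Cflar*, *Ripk1* and *Ripk3* were below their levels in fibroblasts, *Casp8* was above it, and the difference of *Fadd* did not pass the test.

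Death receptors are members of the tumour necrosis factor (TNF) receptor family with a death domain on the inner side of the membrane. Once their ligand binds, FAS and the TRAIL receptor (from *Tnfrsf10b*) recruit FADD and caspase-8, which starts apoptosis, and the caspase-8 homologue cFLIP (from *Cflar*) holds caspase-8 back. TNF receptor 1 (from *Tnfrsf1a*) first signals for survival through RIPK1. Where caspase-8 is blocked, RIPK1 and RIPK3 assemble and RIPK3 phosphorylates MLKL, which breaks the plasma membrane in the form of death called necroptosis. The first steps of both routes lie outside the mitochondrial pathway that BCL-2 inhibits.

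RNA was sequenced from 20 libraries in 8 groups. The study built mice that carry dCas9a-SAM, a Cas9 without nuclease activity joined to transcriptional activators, in the *Rosa26* locus under the CAG promoter, and used it to switch on *Bcl-2* with single guide RNAs (sgRNAs). The mouse embryonic fibroblast (MEF) lines were made from WT or *dCas9a-SAM* KI/+ embryos, with 2 libraries of WT MEFs, 2 of *dCas9a-SAM* KI/+ MEFs without an sgRNA, 2 with a non-targeting sgRNA (sgNT) and 4 with sgRNAs for *Bcl-2* (sg*Bcl-2*). The labels number 2 MEF lines, so that the 4 sg*Bcl-2* libraries hold 2 from each line and are not 4 separate lines. The lymphomas arose in lethally irradiated recipients of fetal liver stem and progenitor cells that carried the *Eµ-Myc* transgene, *dCas9a-SAM* KI/+ and sg*Bcl-2*. From them came 4 IgM-positive lymphoma lines (labelled 14_179_IgMp, 15_180_IgMp, 16_202_IgMp and 17_213_IgMp, where the middle number is the mouse), 2 IgM-negative lines (18_214_IgMn and 19_216_IgMn) and 2 IgM-positive primary tumours (libraries 20 and 21), whose tissue can hold cells of the host. Where the values of all 6 lines are listed, they follow that order. The last group was 2 cultures of preB acute lymphoblastic leukaemia (preB-ALL) with the genotype BCR-ABL1 (p190T/+), named P190CreERLSLErg (library 1) and P190RagCreErg (library 2), grown with IL7. The labels list no treatment for any library. Where nothing in the labels says that the samples of a group were separate cultures or animals, the p-values measure the spread between these samples, which may be technical.

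Values are given as CPM, that is, reads of a gene for every 1000000 reads counted on genes. Depth was 12474885 and 14970269 reads in the preB-ALL libraries and 18854501 to 26678417 in the others. The targeted gene *Bcl2* was at 46.8 to 71.8 CPM in the sg*Bcl-2* MEFs against 13.4 to 13.7 CPM with sgNT, and at 99.4 to 165.1 CPM in the lymphoma lines. Summed B cell markers were 2887 to 5008 CPM in the lymphoma lines, with *Ms4a1* (CD20) at 0 to 7.46 CPM, and 11330 to 12422 CPM in the tumours. The 10 fibroblast markers summed to 3738 to 18978 CPM in the MEFs and to 4.14 to 56.9 CPM in the lymphoma lines. They also summed to 2679 and 1262 CPM in preB-ALL libraries 1 and 2, with *Dcn* at 0 and *Col1a1* at 855.2 and 456.1 CPM. WT MEF library 2 stood apart, with 258.6 CPM of summed macrophage markers against 9.28 CPM in WT library 1 and the lowest fibroblast sum of all MEFs. The preB-ALL libraries were extracted with another kit and run separately, so that run and tumour type cannot be told apart. They also stood apart in having 0% of reads on 15 mitochondrial genes, against 5.30% to 7.18% in the lymphoma lines.

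Start-site sequences of RefSeq (GRCm38.p6, 250 bases before to 50 after the start, 5′ to 3′ on the strand of the gene) are shown for the 4 members with an entry whose log2 levels were farthest below those of the MEFs in the lymphoma lines, and for *Fadd*, which differed least. Capitals mark CG dinucleotides, the sites of DNA methylation.
*Fas*, chr19:34290409-34290708, plus strand: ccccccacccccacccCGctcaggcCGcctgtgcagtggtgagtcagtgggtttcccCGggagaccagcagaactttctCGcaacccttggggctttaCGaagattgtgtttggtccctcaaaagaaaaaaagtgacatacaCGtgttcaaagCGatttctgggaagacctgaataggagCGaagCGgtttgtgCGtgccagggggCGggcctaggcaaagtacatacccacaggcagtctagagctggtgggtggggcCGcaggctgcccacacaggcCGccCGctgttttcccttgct
*Tnfrsf1a*, chr6:125349473-125349772, plus strand: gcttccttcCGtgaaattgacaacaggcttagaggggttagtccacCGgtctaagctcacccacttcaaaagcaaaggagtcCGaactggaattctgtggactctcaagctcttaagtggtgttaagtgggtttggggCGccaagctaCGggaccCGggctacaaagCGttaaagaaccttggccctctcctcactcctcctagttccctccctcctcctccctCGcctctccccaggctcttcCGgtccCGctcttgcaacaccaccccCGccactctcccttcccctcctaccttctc
*Ripk3*, chr14:55788808-55789107, minus strand: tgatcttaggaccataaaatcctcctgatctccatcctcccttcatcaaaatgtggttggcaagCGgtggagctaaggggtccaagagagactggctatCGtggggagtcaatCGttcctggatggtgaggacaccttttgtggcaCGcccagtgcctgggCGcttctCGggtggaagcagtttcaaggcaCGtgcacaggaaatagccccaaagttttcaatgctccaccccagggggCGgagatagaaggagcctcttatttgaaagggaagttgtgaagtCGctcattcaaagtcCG
*Mlkl*, chr8:111338156-111338455, minus strand: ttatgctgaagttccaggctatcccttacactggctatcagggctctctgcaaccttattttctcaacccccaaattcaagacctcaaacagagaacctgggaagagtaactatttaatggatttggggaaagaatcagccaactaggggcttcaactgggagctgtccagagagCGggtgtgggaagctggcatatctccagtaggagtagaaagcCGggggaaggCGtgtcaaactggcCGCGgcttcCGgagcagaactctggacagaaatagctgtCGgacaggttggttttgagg
*Fadd*, chr7:144582392-144582691, minus strand: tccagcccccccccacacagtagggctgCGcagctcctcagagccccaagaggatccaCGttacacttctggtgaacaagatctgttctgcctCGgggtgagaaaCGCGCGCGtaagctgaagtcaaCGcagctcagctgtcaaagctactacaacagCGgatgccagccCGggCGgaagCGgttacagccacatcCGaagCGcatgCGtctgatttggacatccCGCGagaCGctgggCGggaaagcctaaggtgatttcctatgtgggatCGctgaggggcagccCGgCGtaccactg

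The windows held 14 CG dinucleotides at *Fas*, 11 at *Tnfrsf1a*, 10 at *Ripk3*, 7 at *Mlkl* and 22 at *Fadd*, against a median of 7 over 32851 windows of the same length. The number did not separate the low genes from the others, since the window of *Casp8*, which was not low in the lymphoma lines, held 5. Of the 9 genes, 8 had an entry, and *Tnfrsf10b* had none. *Ripk1* had 2 windows, with 22 and 36 CG dinucleotides. The letters CACGTG, the E-box that MYC and its relatives bind, occurred once each in the windows of *Fas* (from position 141 of the sequence as printed) and *Ripk3* (from position 190), and in 7.15% of all windows. The interferon response letters GAAANNGAAA were found on either strand at *Cflar* and in one window of *Ripk1*, and in 3.44% of all windows. The NF-κB letters GGGANTTCC were in none of the 9 windows and in 1.68% of all. A match of letters is a description of the sequence and no measure of binding.

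**Figure D1:**
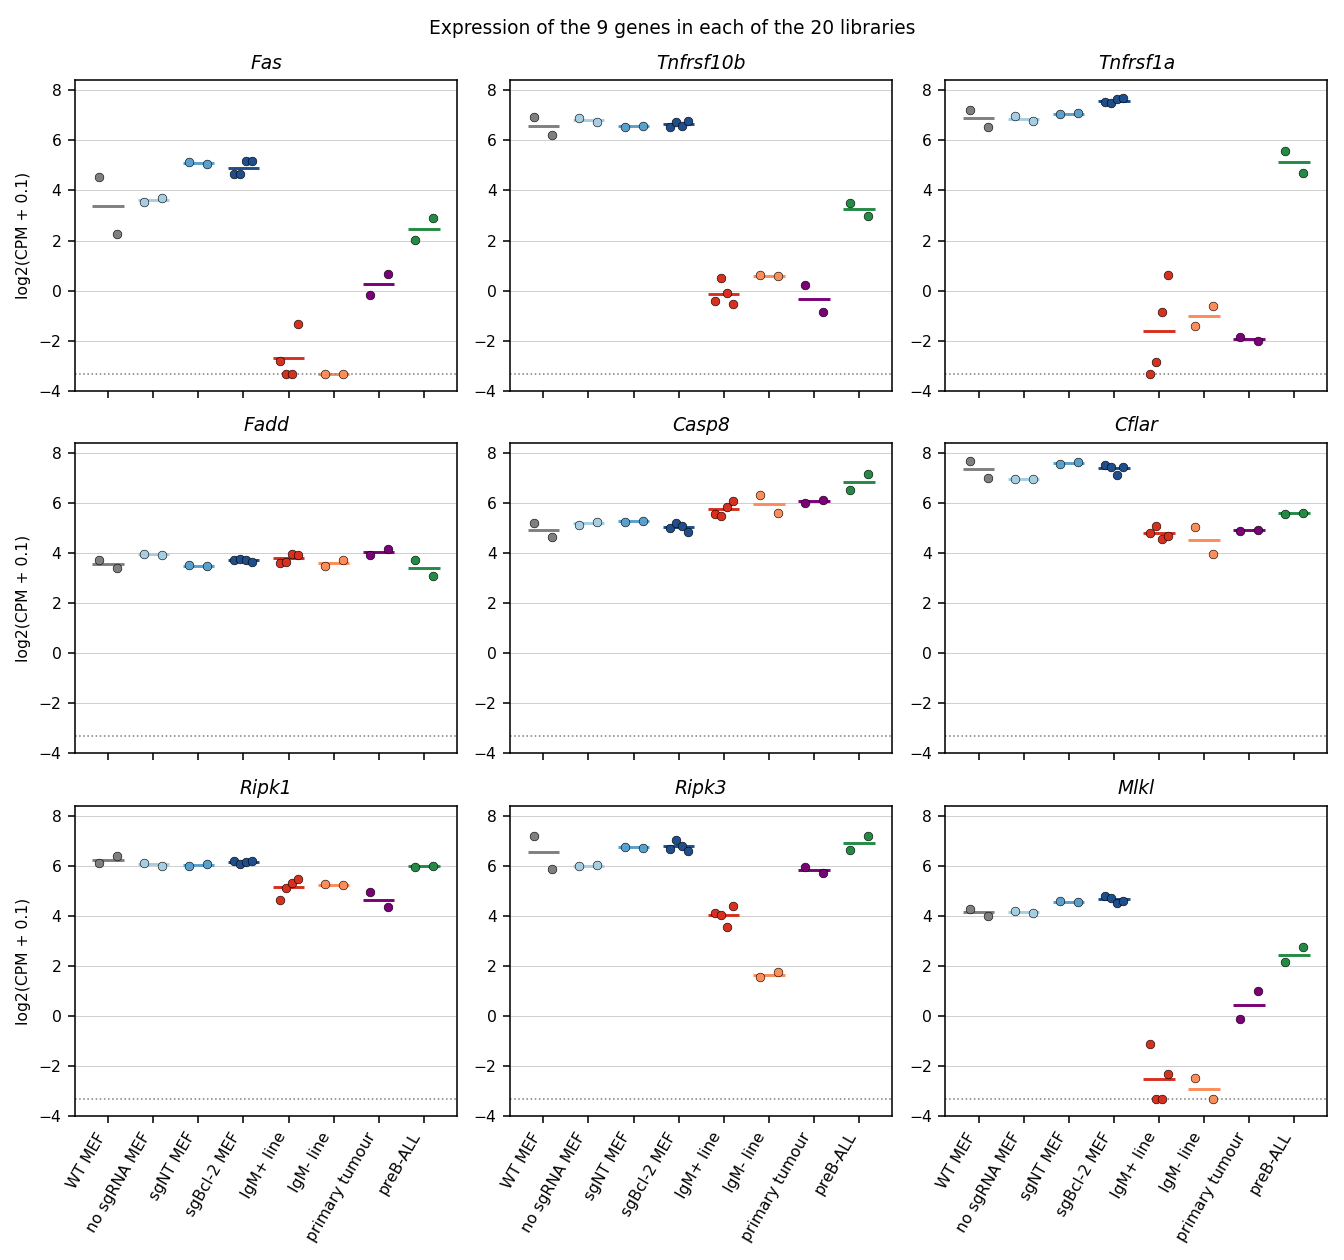
Level of each of the 9 genes as log2(CPM + 0.1) on the vertical axis for the 8 groups on the horizontal axis. Each point is 1 library, the bar is the group mean and the dotted line marks 0 CPM. *Fas*, *Tnfrsf1a* and *Mlkl* reach that line in at least 1 lymphoma line, while *Fadd* stays between 8.34 and 18.1 CPM in all 20 libraries.

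The first comparison set the 6 lymphoma lines against the 4 sg*Bcl-2* MEF libraries, a contrast of cell types in which both arms carry dCas9a-SAM and sg*Bcl-2* and were extracted with the same kit. Of the 9 genes 8 were called by limma (adjusted p under 0.05), 7 of them lower in the lymphoma lines and only *Casp8* higher. Of all 14620 tested genes, 81.3% were called, so that a call by itself sets the members little apart, and 45% were called lower. The median difference over the 9 genes was -3.73 on the log2 scale, and over all tested genes -0.27. Without a scaling factor the latter was -0.10, so small differences of this comparison depend on the scaling. In bulk RNA, fewer cells of a type and less RNA per cell cannot be told apart.

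*Fas* (chr19:34290647-34327775, plus strand, GRCm38) encodes the receptor for FAS ligand. It was at 25.1, 24.8, 36.5 and 35.8 CPM in the sg*Bcl-2* MEFs. In the lymphoma lines it was at 0.0406 CPM in 14_179_IgMp and 0.299 CPM in 17_213_IgMp, and no read was counted in the other 4 lines, which allows up to 0.112 to 0.129 CPM a library (3 reads, counting error only). The groups lay far apart, with 7 reads in the 6 lines together against 2980 in the 4 MEF libraries. The limma difference was -7.94 ± 0.40 on the log2 scale (SE, n = 6 and 4, adjusted p = 1.2e-08). With so few reads its size depends on the pseudocount and the tool, from -9.81 with limma-voom to -4.99 with a pseudocount of 1, and it was called in all 20 alternatives.

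*Tnfrsf10b* (chr14:69767472-69784411, plus strand), the receptor gene for TRAIL, was at 93.1, 105.2, 93.9 and 107.8 CPM in the sg*Bcl-2* MEFs. It was at 0.649, 1.31, 0.834 and 0.597 CPM in the IgM-positive lines, and at 1.45 and 1.38 CPM in the IgM-negative lines. Unlike *Fas*, it kept some reads in every line (154 in all), about 96.5 times below the MEF mean. The log2 difference was -6.70 ± 0.27 (SE, limma adjusted p = 2.2e-09).

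*Tnfrsf1a* (chr6:125349723-125362483, plus strand), the gene of TNF receptor 1, was the highest of the 3 receptor genes per kb in the sg*Bcl-2* MEFs, at 185.1, 181.4, 199.9 and 206.0 CPM. In the lymphoma lines it ran from 0 in 14_179_IgMp and 0.0375 CPM in 15_180_IgMp through 0.273 CPM in 18_214_IgMn, 0.455 CPM in 16_202_IgMp and 0.560 CPM in 19_216_IgMn to 1.44 CPM in 17_213_IgMp. Line 17_213_IgMp was the highest of the 6 for *Fas* and *Tnfrsf1a*, but the lowest for *Tnfrsf10b*. The log2 difference to the MEFs was -9.14 ± 0.68 (SE, limma adjusted p = 3.3e-07), the largest of the 9 on this scale. The rank depends on the pseudocount, since the ratio of mean CPM was 418.2 for *Tnfrsf1a* and 540.5 for *Fas*.

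*Fadd* (chr7:144578323-144582441, minus strand), the adaptor gene, was the steadiest. It was at 13.2, 13.5, 13.1 and 12.4 CPM in the sg*Bcl-2* MEFs and at 12.1, 12.4, 15.7, 15.2, 11.1 and 13.2 CPM in the 6 lymphoma lines. The groups overlapped, and the log2 difference of -0.16 (95% interval -0.45 to 0.13) missed the threshold with limma (adjusted p = 0.274). It passed with DESeq2 (adjusted p = 0.00628) and with RLE scaling (0.0232). Exons of *Fadd* overlap those of *Faddos* on the other strand, and the kit does not mark strand, so reads of the 2 genes cannot be told apart.

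*Casp8* (chr1:58795233-58847503, plus strand) was the member that was higher in the lymphoma lines. It was at 32.4, 36.7, 34.2 and 28.6 CPM in the sg*Bcl-2* MEFs and at 47.8, 44.8, 57.6, 67.0, 79.2 and 48.9 CPM in the 6 lymphoma lines, without overlap. The log2 difference was 0.60 ± 0.18 (SE, limma adjusted p = 0.010). With RLE scaling the call was lost (adjusted p = 0.0559), and so it was with the 2 sg*Bcl-2* libraries of each MEF line summed (0.0825).

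*Cflar* (chr1:58711311-58758884, plus strand), the neighbour of *Casp8* on chromosome 1, went the other way. It was at 184.9, 171.4, 140.4 and 175.6 CPM in the sg*Bcl-2* MEFs and at 28.2, 34, 23.9, 25.7, 32.9 and 15.7 CPM in the 6 lymphoma lines. The lowest MEF library stood well above the highest lymphoma line, and the log2 difference was -2.86 ± 0.20 (SE, limma adjusted p = 1.7e-07).

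The ratio of *Cflar* to *Casp8* in 1 library does not depend on the scaling between libraries. Per kb of exon, it was 1.20 to 2.25 in the 10 MEF libraries and 0.118 to 0.279 in the 6 lymphoma lines. It was 0.162 and 0.167 in the tumours and 0.186 and 0.126 in preB-ALL. Per kb, the inhibitor thus had more reads than the caspase in every MEF library and fewer in every lymphoma and leukaemia library. These ratios are a description with no test.

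**Figure D2:**
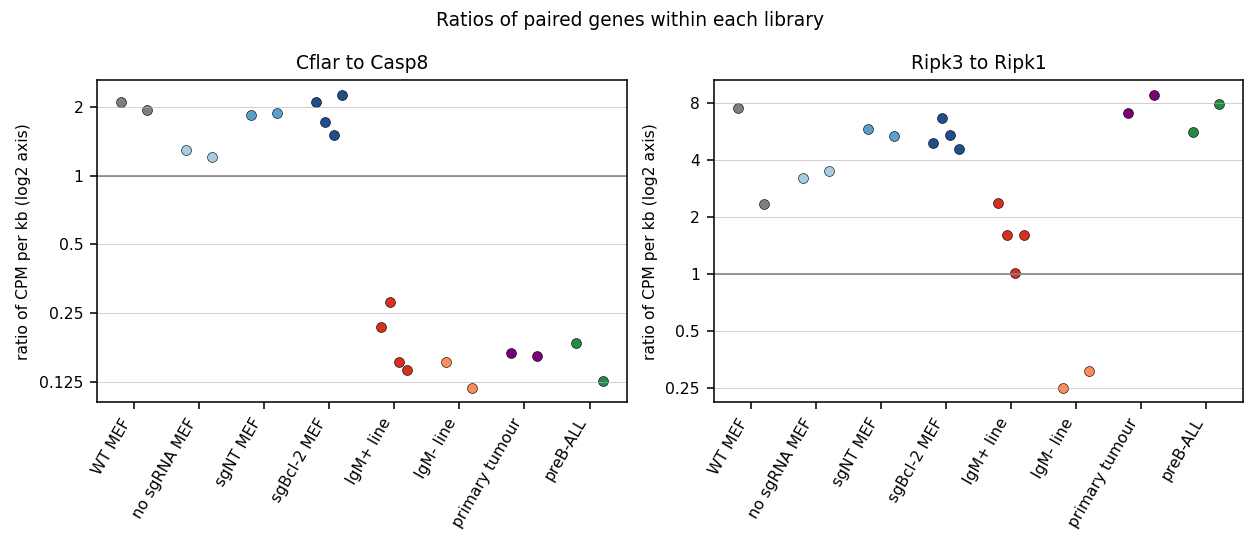
Ratio of *Cflar* to *Casp8* (left) and of *Ripk3* to *Ripk1* (right), from CPM per kb of exon, on a log2 vertical axis, with 1 point for each library and the 8 groups on the horizontal axis. The *Cflar* to *Casp8* ratio lies above 1 in all MEF libraries and at 0.279 or below in all others, whereas the *Ripk3* to *Ripk1* ratio is below 1 only in the 2 IgM-negative lines. That last cut depends on the exon lengths used. In CPM, *Ripk3* was below *Ripk1* in every lymphoma line, in no-sgRNA library 1 and in WT library 2.

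*Ripk1* (chr13:34002225-34035170, plus strand), whose kinase stands at the fork of survival and death below TNF receptor 1, fell the least of the called genes that were lower. It was at 72.2, 67.5, 70.8 and 72.4 CPM in the sg*Bcl-2* MEFs and at 25.1, 34.9, 39.3, 44.8, 38.8 and 37.2 CPM in the 6 lymphoma lines. The groups did not overlap, and the log2 difference was -1.14 ± 0.15 (SE, limma adjusted p = 3.1e-05). Its exons overlap those of *Serpinb6a* on the other strand and of *Gm17084*, so part of its reads may belong to them.

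*Ripk3* (chr14:55784995-55788857, minus strand), the kinase gene specific to necroptosis, was at 102.8, 131.0, 111.0 and 95.9 CPM in the sg*Bcl-2* MEFs. In the lines it was at 17.1, 16.3, 11.6 and 20.8 CPM in the IgM-positive lines, and at 2.81 and 3.28 CPM in the IgM-negative lines. The lines thus fell into a higher IgM-positive and a lower IgM-negative set, both below the MEFs, and the log2 difference over all 6 was -3.73 ± 0.56 (SE, limma adjusted p = 0.00011). *Mlkl* (chr8:111311255-111338479, minus strand), the target of that kinase, was at 27.7, 26.4, 23.0 and 24.3 CPM in the sg*Bcl-2* MEFs. In the lines it was at 0.365 CPM in 14_179_IgMp, 0.0996 CPM in 17_213_IgMp and 0.0781 CPM in 18_214_IgMn, with no read in 15_180_IgMp, 16_202_IgMp and 19_216_IgMn. That is 13 reads in 6 lines against 2478 in 4 MEF libraries, and the log2 difference was -7.44 ± 0.42 (SE, limma adjusted p = 3.2e-08), between -8.96 and -4.71 over the alternatives.

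Among the 55 other genes of these pathways, 48 were tested, of which limma called 16 higher and 20 lower in the lymphoma lines than in the sg*Bcl-2* MEFs. Other receptors and decoys shared the direction of the members, with 7 of 8 tested lower and none higher. *Ltbr*, the lymphotoxin β receptor gene, differed by -9.98 ± 0.19, and *Tnfrsf11b*, the decoy receptor osteoprotegerin, by -8.02 ± 0.29 (log2 difference, SE). Of the ligand genes, *Tnfsf12* was at a mean of 0.0166 CPM in the lines against 15.1 CPM in the MEFs and *Tnfsf15* at 0.0133 against 3.41 CPM, both called lower. *Tnfsf10*, which encodes TRAIL, was called higher although the groups overlapped, with 0 to 15.9 CPM in the lines and 3 reads in the 4 MEF libraries. It was named after its values were seen.

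Proteins of the complex at TNF receptor 1 were split, with 9 of 21 genes higher and 6 lower. *Otulin*, a deubiquitinase gene, was higher by 1.75 ± 0.13 and *Rbck1*, a subunit of the linear ubiquitin ligase, by 1.22 ± 0.06. *Tnfaip3*, the gene of the NF-κB inhibitor A20, was lower, at -4.44 ± 0.77, as was *Mapkapk2*, at -1.35 ± 0.17 (log2 difference, SE). Downstream, *Diablo*, whose protein relieves caspases of their inhibitors, was higher by 0.69 ± 0.11, and *Casp6*, an effector caspase gene, differed by -2.05 ± 0.25. Of 10 tested necroptosis partners, 4 were higher, among them the chaperone genes *Hsp90ab1* (1.22 ± 0.13) and *Hsp90aa1* (0.90 ± 0.19), and 4 were lower, among them the sensor genes *Tlr3* (-5.43 ± 0.29) and *Tlr4* (-5.03 ± 0.95).

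The second comparison set the same 6 lymphoma lines against preB-ALL, the contrast of tumour types that the study made. It shares the lines with the first, so the 2 comparisons are not independent. All 9 genes were tested and limma called 5, all lower in the lymphoma lines, where 43.4% of 13961 genes were called and 22.5% called lower. These were the 3 receptor genes, *Ripk3* and *Mlkl*. The median difference over the 9 genes was -2.79 and over all tested genes -0.07 on the log2 scale. Without a scaling factor the latter became -0.42, the calls over all genes went from 2914 higher and 3145 lower to 1691 and 4400, and 8 of the 9 members were called, all lower. Without mitochondrial genes in the totals the same 5 members were called.

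*Fas* was at 3.94 and 7.46 CPM in preB-ALL libraries 1 and 2, above every lymphoma line, with a log2 difference of -5.09 ± 0.60 (SE, n = 6 and 2, limma adjusted p = 0.00027). *Tnfrsf10b* was at 11.2 and 7.86 CPM, for a difference of -2.79 ± 0.49 (adjusted p = 0.0023). *Tnfrsf1a* was at 48.0 and 25.8 CPM, for a difference of -6.21 ± 1.03 (adjusted p = 0.0018). For none of the 3 receptor genes did a lymphoma line reach a preB-ALL library. *Tnfrsf1a* and *Tnfrsf10b* were higher in preB-ALL library 1, which also had more fibroblast marker reads, and *Fas* was higher in library 2. Over the alternatives the difference of *Fas* ran from -6.80 to -2.39 and that of *Mlkl* from -6.20 to -2.32, all of them called.

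*Mlkl* was at 4.34 and 6.57 CPM in preB-ALL, against at most 0.365 CPM in the lines (log2 difference -4.80 ± 0.64, SE, limma adjusted p = 0.00055). *Ripk3* was at 100.1 and 146.8 CPM in preB-ALL, a level within the range of the MEFs, and the difference of -3.34 ± 0.79 was called (adjusted p = 0.0097). The *Ripk3* call was lost without preB-ALL library 1 (adjusted p = 0.0546), without library 2 (0.108) and with the primary tumours in place of the lines of the same mice (0.122).

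The preB-ALL libraries carried fibroblast marker RNA, at 19.2% and 9.06% of the MEF mean in libraries 1 and 2. Set on the same scale, *Tnfrsf1a* was at 31.7% and 17.0%, *Tnfrsf10b* at 11.1% and 7.78%, *Fas* at 16.2% and 30.7%, *Mlkl* at 19.8% and 30.0%, and *Ripk3* at 101.4% and 148.6% of its MEF mean. All of the markers but *Dcn* had a read in at least 1 of the 2 libraries. Other marker sums differed as well. In preB-ALL libraries 1 and 2, B cell markers summed to 10490 and 13792 CPM and pre-B cell markers to 3264 and 5452 CPM, above every lymphoma line. Endothelial sums were also above all lines, T cell sums were below them, and macrophage, NK cell and erythroid sums overlapped. The part of these marker differences in these results was not tested.

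The other 4 genes missed the threshold against preB-ALL. *Casp8* was at 92.9 and 142.9 CPM in preB-ALL, the highest level of any group, with a log2 difference of -0.67 (95% interval -1.28 to -0.06, limma adjusted p = 0.0737) that was called with DESeq2 (0.0317), with RLE scaling (0.0476) and without line 18_214_IgMn (0.0274). *Cflar* was at 47.0 and 49.1 CPM (difference -0.52, interval -1.16 to 0.11, adjusted p = 0.156) and *Ripk1* at 61.3 and 64.2 CPM (difference -0.43, interval -0.93 to 0.07, adjusted p = 0.140). Each of these 3 genes was higher in both preB-ALL libraries than in every line before scaling, and without a scaling factor each was called (adjusted p of 0.0122, 0.0344 and 0.0162). *Fadd* was at 13.1 and 8.34 CPM and overlapped the lines (difference 0.69, interval 0.07 to 1.31, adjusted p = 0.0705), and was called without preB-ALL library 1 (0.0275). With all 20 libraries in the fit *Fadd*, *Casp8* and *Ripk1* were called (adjusted p of 0.0127, 0.0140 and 0.0119).

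**Figure D3:**
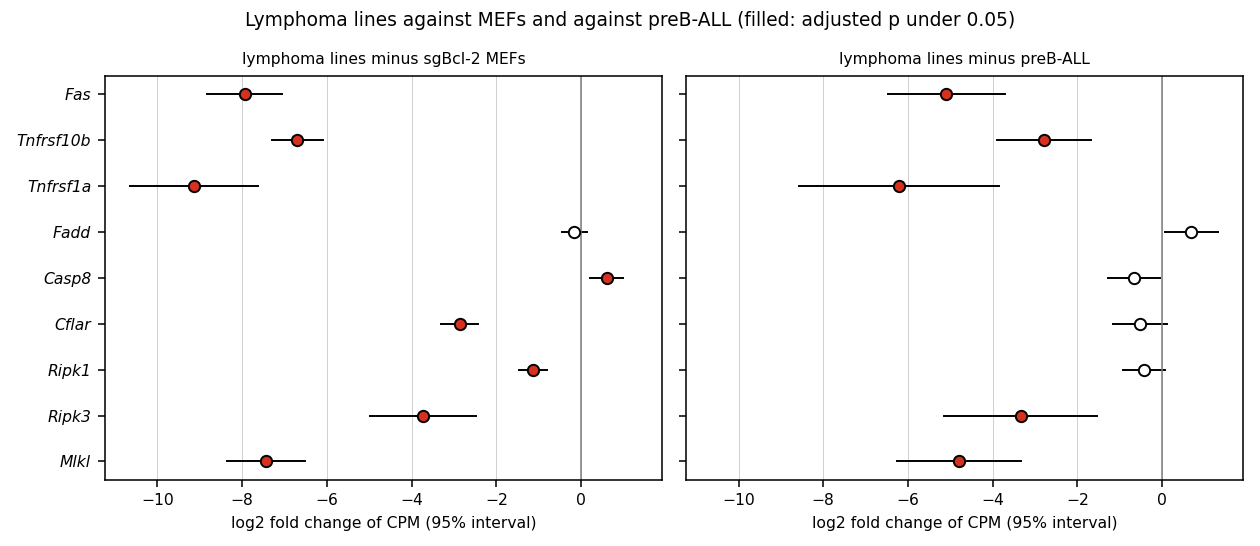
Log2 fold change of CPM with its 95% interval on the horizontal axis for each of the 9 genes, for lymphoma lines minus sg*Bcl-2* MEFs (left, n = 6 and 4) and minus preB-ALL (right, n = 6 and 2), from limma. Filled points passed an adjusted p of 0.05. The receptor genes, *Ripk3* and *Mlkl* lie to the left of 0 in both panels, and *Casp8* lies to the right on the left panel.

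Among the other pathway genes, 50 were tested against preB-ALL, and limma called 8 higher and 16 lower in the lymphoma lines. Ligand genes were lower in 4 of 5 tested, among them *Lta* (log2 difference -6.03 ± 0.72) and *Tnf* (-5.11 ± 0.68, SE). Of 8 tested receptors 4 were lower, with *Ltbr* at -7.02 ± 0.35 and *Tnfrsf11b* at -5.50 ± 0.57. In the receptor complex 3 genes were higher and 5 lower of 21, with *Traf3*, a brake on NF-κB signalling, higher by 1.57 ± 0.39. *Tnfaip3* (-3.86 ± 1.08) and *Rnf31* (-1.06 ± 0.25), the catalytic subunit of the linear ubiquitin ligase, were lower. *Bid*, the caspase-8 substrate that links the receptors to mitochondria, was higher by 0.89 ± 0.19. Of 10 tested necroptosis partners 4 were higher, among them *Hsp90aa1* (2.75 ± 0.45) and its co-chaperone *Cdc37* (0.94 ± 0.17), and 3 were lower, among them *Zbp1* (-4.31 ± 0.53), a sensor that activates RIPK3, and *Tlr3* (-3.92 ± 0.51).

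Within the lymphoma lines, the 2 IgM-negative lines were compared with the 4 IgM-positive ones. Limma called 1 of 7 tested members, *Ripk3*, where 0.597% of 12386 genes were called. The difference was -2.31 ± 0.29 on the log2 scale (SE, n = 2 and 4, limma adjusted p = 0.0360), which is 3.04 ± 0.33 CPM against 16.4 ± 3.78 CPM (SD). The 2 IgM-negative lines lay below all 4 IgM-positive lines. The direction held in all 15 alternatives, from -2.46 to -2.04, but the call did not: edgeR gave an adjusted p of 0.0851, limma-voom 0.246, and leaving out any 1 line but 16_202_IgMp gave 0.0929 to 0.173, a pseudocount of 1 gave 0.0517 and no filter on low counts gave 0.0521. Over all alternatives the adjusted p ran from 2.0e-09 with DESeq2 to 0.246. Summed pre-B cell markers were also lower, at 115.6 and 121.5 CPM in the IgM-negative lines against 576.4 to 1114 CPM in the others. Summed B cell markers were lower too, at 2890 and 2887 CPM against 3765 to 5008 CPM. So were the macrophage, NK cell and endothelial sums, while the fibroblast, T cell and erythroid sums overlapped. Limma called 0 of 7 pre-B cell and 0 of 10 B cell markers, with 5 of each at an unadjusted p under 0.05. The part of these marker differences was not tested. *Ripk3* reads are ample here, with 148 in the 2 IgM-negative lines, and the *Ripk3* to *Ripk1* ratio per kb was 0.250 and 0.305 in them against 1.02 to 2.36 in the IgM-positive lines.

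*Fas* and *Mlkl* had too few reads in the lines to be tested between the IgM classes. *Tnfrsf10b* was higher in both IgM-negative lines than in the 4 others, but the log2 difference of 0.78 (95% interval -0.36 to 1.93, limma adjusted p = 0.585) missed the threshold. *Casp8*, *Cflar*, *Ripk1*, *Fadd* and *Tnfrsf1a* overlapped between the classes, with differences of 0.27, -0.23, 0.16, -0.13 and 0.62. Of the other pathway genes, limma called 0 of 41 tested, with 6 at an unadjusted p under 0.05.

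The primary tumours were compared with lines 14_179_IgMp and 15_180_IgMp, which came from the same mice. The labels of the tumour libraries give opposite mouse numbers in 2 places, so they were not paired in the main test. Limma called 0 of 8 tested members, where 0.33% of 12719 genes were called, and 3 members had an unadjusted p under 0.05. *Ripk3* was at 62.6 and 52.1 CPM in tumours 20 and 21 against 17.1 and 16.3 CPM in the lines, a log2 difference of 1.72 ± 0.21 (SE, n = 2 and 2, limma adjusted p = 0.0639). Both tumours lay above all 6 lymphoma lines for *Ripk3*. DESeq2 called *Ripk3* and *Fas* (adjusted p of 1.5e-08 and 0.0426), where it called 16.5% of 12719 genes, and edgeR and limma-voom called 0 members and 0 genes. With the mouse number of the titles as a block, limma called 4 members, namely *Fas*, *Casp8*, *Ripk3* and *Mlkl*, where 28.3% of genes were called, and with that of the descriptions 0 members and 0 genes.

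*Fas* was at 0.788 and 1.5 CPM in the tumours, above all 6 lines, with 48 reads against 1 in the 2 lines. That is a ratio of 57.5 with a 95% interval of 9.83 to 2317 for counting error only (Clopper-Pearson), and the adjusted p of limma was 0.0807. *Mlkl* was at 0.832 and 1.90 CPM, 57 reads against 9, a ratio of 7.58 (interval 3.73 to 17.4) with an adjusted p of 0.198. All 9 reads came from 14_179_IgMp, and the log2 difference of 2.61 became 3.77 without that line and 1.47 without 15_180_IgMp. *Casp8* was at 64.4 and 69.6 CPM against 47.8 and 44.8 CPM (log2 difference 0.48 ± 0.17, adjusted p = 0.183). *Tnfrsf1a* stayed near 0, at 0.175 and 0.150 CPM, or 7 reads against 1 (ratio 8.38, interval 1.08 to 377.7), and was not tested.

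Of the remaining members only *Fadd* was higher in both tumours than in both lines, and none was called. *Tnfrsf10b* was at 1.05 and 0.449 CPM, *Cflar* at 29.3 and 30.7 CPM, *Ripk1* at 30.7 and 20.3 CPM, and *Fadd* at 14.9 and 18.1 CPM. The tumours had more reads of several markers of other cells. Their summed macrophage markers were 43.2 and 34.4 CPM against 2.62 to 15.8 CPM in the 6 lines, with 10 or 11 of the 11 markers above 0, and summed NK cell markers were 4.99 to 12.5 CPM against 0.352 to 1.34 CPM. Summed erythroid markers were also higher, at 2.58 and 5.29 CPM against 0.243 to 0.946 CPM. Summed endothelial markers were at 32.7 and 43.3 CPM against 2.89 to 43.1 CPM in the 6 lines, so that tumour 20 lay within their range. In tumour 20 the fibroblast and T cell markers lay above all 6 lines (171.9 CPM against 4.14 to 56.9 CPM, and 233.2 CPM against 8.98 to 112.3 CPM), and in tumour 21 within their range (15.5 and 46.9 CPM). *Thy1* is in both of these lists, so the fibroblast and T cell sums share reads and are not separate observations. Summed pre-B cell markers were lower, at 320.8 and 266.1 CPM against 576.4 and 971.5 CPM in the lines of the same mice. Summed B cell markers were higher, at 11330 and 12422 CPM against 5008 and 4906 CPM, with 8 of 10 at an unadjusted p under 0.05 and 1 called. Mitochondrial genes held 7.80% and 9.04% of reads in the tumours against 6.73% and 5.30%. The part of these differences in the levels of *Fas*, *Ripk3* and *Mlkl* was not tested.

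Of the other pathway genes limma called 0 of 47 tested between tumours and lines, with 19 at an unadjusted p under 0.05. *Zbp1*, chosen here after its values were seen, was at 2.45 to 3.79 CPM in the tumours and at 0.0391 to 0.129 CPM in the 6 lines.

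Within the MEFs that carry the cassette, sgNT was compared with no sgRNA. Limma called 6 of the 9 members, where 41.1% of 14655 genes were called. *Fas* rose the most, from 11.6 and 12.9 CPM without an sgRNA to 35.3 and 32.9 CPM with sgNT, a log2 difference of 1.46 ± 0.10 (SE, n = 2 and 2, limma adjusted p = 5.5e-05). *Ripk3* rose from 63.7 and 65.0 CPM to 108.4 and 104.3 CPM (0.71 ± 0.06, adjusted p = 0.00018). *Cflar* rose from 123.5 and 122.9 CPM to 188.7 and 198.1 CPM (0.63 ± 0.07, adjusted p = 0.00042). In all 3 genes the libraries of one group differed far less than the groups did.

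*Mlkl* rose from 18.1 and 17.2 CPM to 24.1 and 23.1 CPM (0.40 ± 0.09, limma adjusted p = 0.0101). *Fadd* fell from 15.4 and 15.2 CPM to 11.5 and 11.0 CPM (-0.46 ± 0.11, adjusted p = 0.0119), and *Tnfrsf10b* from 119.6 and 104.9 CPM to 93.0 and 95.8 CPM (-0.26 ± 0.08, adjusted p = 0.0351). The *Tnfrsf10b* call was lost in 7 of 14 alternatives, with the MEF line as a replicate block (adjusted p = 0.0612), with DESeq2 (0.0540), with no filter on low counts (0.0688), with all 20 libraries in the fit (0.838), without sgNT library 1 (0.160) or 2 (0.0512) and without no-sgRNA library 1 (0.259). *Fadd* lost its call without no-sgRNA library 1 or 2 (0.0647 and 0.0528), and *Mlkl* without no-sgRNA library 2 (0.0585). The other 3 members missed the threshold, with differences of 0.18 for *Tnfrsf1a* (interval -0.01 to 0.38), 0.06 for *Casp8* (-0.13 to 0.25) and -0.02 for *Ripk1* (-0.20 to 0.15). With all 20 libraries in the fit 0 members were called. That fit pools the spread over all 8 groups.

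Fibroblast markers moved in the same comparison, with 8 of 10 called higher with sgNT and their sum at 15170 and 15569 CPM against 12640 and 11049 CPM without an sgRNA. Their part in the rise of *Fas*, *Ripk3* and *Cflar* was not tested. Of 48 other pathway genes tested, 5 were higher and 12 lower. *Ngfr* (-4.82 ± 0.13) and *Tnfrsf11b* (-2.05 ± 0.09) were the receptor genes with the largest falls. The ligand gene *Tnfsf15* fell (-1.96 ± 0.18) and *Tnfsf12* rose (0.65 ± 0.12). *Traf2* (0.42 ± 0.09) and *Birc3* (0.40 ± 0.12), whose proteins take part in the ubiquitination of RIPK1 at TNF receptor 1, rose, while *Tnfaip3* (-0.90 ± 0.09) and *Mapkapk2* (-0.35 ± 0.06) fell. *Bid* rose by 0.29 ± 0.08, *Ripk2* fell by 0.53 ± 0.07, and *Ripk4* went from 48 reads to 1.

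The sg*Bcl-2* MEFs, in which *Bcl2* itself rose by 2.17 ± 0.19 (log2, SE, limma adjusted p = 0.0012), were compared with the same sgNT libraries. Limma called 1 of the 9 members, where 10.8% of 14676 genes were called. Those were 970 higher and 622 lower, and without a scaling factor 710 higher and 1137 lower. The member called was *Tnfrsf1a*, which with sg*Bcl-2* had levels of 185.1 and 181.4 CPM (line 1) and of 199.9 and 206.0 CPM (line 2), against 131.3 and 136.1 CPM with sgNT. All 4 libraries lay above both sgNT libraries, and the log2 difference was 0.62 ± 0.08 (SE, limma adjusted p = 0.0045). The call was lost without sgNT library 1 (adjusted p = 0.0622) and with all 20 libraries in the fit (0.965). *Fadd* came next, at 0.30 (interval 0.09 to 0.51, limma adjusted p = 0.0739). Among cell type markers, 2 of 10 fibroblast markers were called higher in this comparison, and 1 macrophage and 1 endothelial marker lower. Their part in the rise of *Tnfrsf1a* was not tested.

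*Fas* differed between the MEF lines within the sg*Bcl-2* group, at 25.1 and 24.8 CPM in line 1 and 36.5 and 35.8 CPM in line 2, a gap that the sgNT libraries of the 2 lines, at 35.3 and 32.9 CPM, did not show. Its difference to sgNT was -0.09 (95% interval -0.50 to 0.31). *Ripk1*, *Ripk3*, *Mlkl* and *Tnfrsf10b* had differences of 0.19, 0.13, 0.19 and 0.17, and *Casp8* and *Cflar* of -0.13 and -0.12, none of them called. Of 47 other pathway genes tested 3 were called, all higher: the receptor genes *Tnfrsf1b* (0.54 ± 0.09) and *Ltbr* (0.26 ± 0.06), and *Zbp1* (1.77 ± 0.42).

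**Figure D4:**
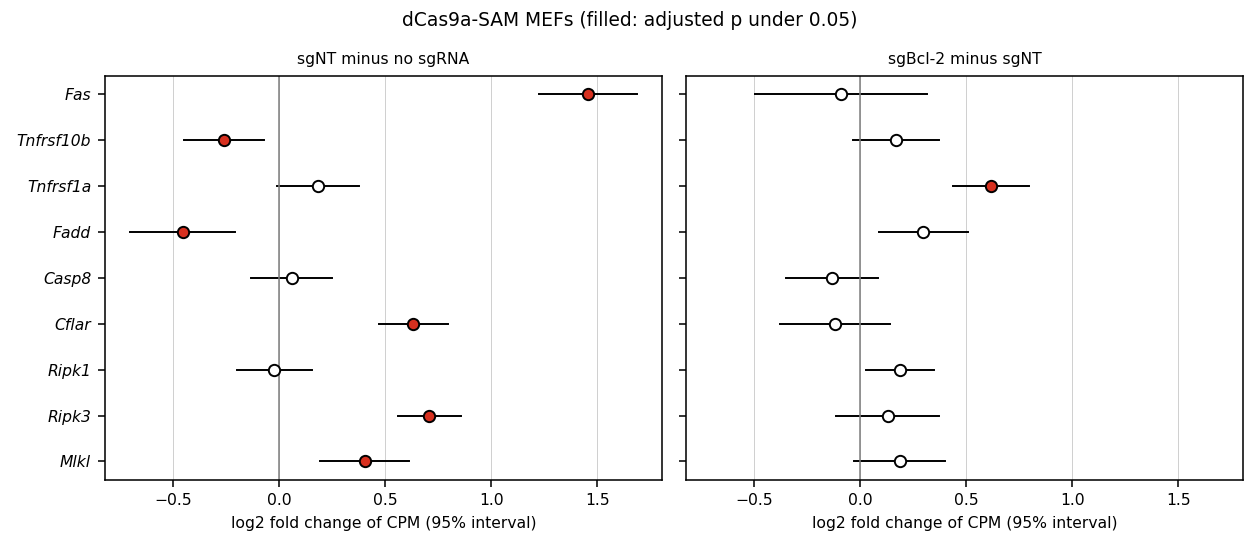
Log2 fold change of CPM with its 95% interval on the horizontal axis for each of the 9 genes in *dCas9a-SAM* KI/+ MEFs, for sgNT minus no sgRNA (left, n = 2 and 2) and sg*Bcl-2* minus sgNT (right, n = 4 and 2), from limma. Filled points passed an adjusted p of 0.05. *Fas* has the largest change on the left (1.46) and *Tnfrsf1a* is the only filled point on the right (0.62).

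The WT MEFs served as the reference without the cassette, and the 2 libraries disagreed on most members. *Fas* was at 22.8 CPM in WT library 1 and 4.75 CPM in WT library 2, *Ripk3* at 148.0 and 57.8 CPM, *Cflar* at 207.4 and 129.8 CPM, and *Tnfrsf1a* at 150.0 and 91.5 CPM. *Tnfrsf10b* was at 121.4 and 75.1 CPM, *Casp8* at 36.5 and 24.6 CPM, *Mlkl* at 19.5 and 15.7 CPM and *Fadd* at 13.3 and 10.4 CPM. Library 2, the one with macrophage markers, was the lower of the 2 for these 8 genes and the higher only for *Ripk1*, at 85.0 against 68.2 CPM.

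Against WT, limma called 0 of 9 members with sgNT and 0 of 9 without an sgRNA, and 0% of 14560 and 0% of 14546 genes. At an unadjusted p under 0.05 there were 0 members in either comparison, and 589 and 1081 genes in all. EdgeR, DESeq2 and limma-voom also called 0 members. Of the other pathway genes, limma called 0 of 47 and 0 of 49 tested, with 1 and 5 at an unadjusted p under 0.05. The intervals were wide, for *Fas* -0.60 to 4.01 with sgNT and -2.17 to 2.70 without an sgRNA. Without WT library 2, whose markers differ, 3 members were called with sgNT (*Fas* higher, *Tnfrsf10b* and *Ripk3* lower) and 4 without an sgRNA (*Fas*, *Tnfrsf1a*, *Cflar* and *Ripk3*, all lower), where 11.2% and 31.8% of all genes tested were called. Without WT library 1 the numbers were 7 and 6, all higher, where 53.4% and 55.1% of genes were called. The lone WT library was then assumed to vary like the other group, so these calls compare single libraries. Both comparisons use the same WT libraries.

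Per kb of exon, *Tnfrsf1a* led in the sg*Bcl-2* MEFs, at 89.6 ± 5.45 CPM per kb (SD, n = 4), ahead of *Ripk3* at 55.8 ± 7.70. *Tnfrsf10b* followed at 31.5 ± 2.39, then *Cflar* at 21.4 ± 2.45 and *Fas* at 17.0 ± 3.60, whose ranges over libraries overlapped. *Mlkl*, *Casp8* and *Ripk1* lay near each other, at 12.7 ± 1.06, 11.4 ± 1.18 and 10.4 ± 0.33, and *Fadd* was last at 3.34 ± 0.12. In the lymphoma lines *Casp8* led at 19.9 ± 4.62 (n = 6), ahead of *Ripk1* at 5.38 ± 0.96. The place of *Ripk3* differed by IgM class. At 8.33 ± 1.92 in the IgM-positive lines (n = 4) it came after *Casp8* and overlapped *Ripk1*, and at 1.54 ± 0.17 in the IgM-negative lines (n = 2) it lay below *Ripk1*, *Fadd* and *Cflar* in both. *Fadd* and *Cflar* did not differ beyond their spread, at 3.41 ± 0.47 and 3.39 ± 0.85, and the 3 receptor genes and *Mlkl* were at 0.326 or less. In preB-ALL *Ripk3* led at 62.6 ± 16.7 (n = 2) ahead of *Casp8* at 40.8 ± 12.2. In the tumours *Ripk3* and *Casp8* led at 29.1 ± 3.78 and 23.2 ± 1.25.

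The pattern over all 20 libraries was set beside that of 16482 other genes by the Pearson correlation of log2 values, as a description with no test, since these libraries fall into separate kinds of cell. *Mlkl* and *Fas* were alike, with r = 0.98, and *Fadd* was unlike every other member, with r between -0.31 (*Casp8*) and 0.16 (*Cflar*). The genes most like *Fas* were *Rnase4*, *Ifitm3* and *Fkbp7* (r = 0.98 each), those most like *Tnfrsf10b* were *Adamtsl5*, *Gpc4* and *Fbln2*, one of the fibroblast markers (r = 0.997, 0.997 and 0.996), and those most like *Tnfrsf1a* were *Parva*, *Emp2* and *Ptk7* (r = 0.99 each). *Cflar* was closest to *Ctsk*, *Kcnab1* and *Gng8* (r = 0.99, 0.99 and 0.98), *Mlkl* to *Tctn2*, *Cul7* and *B4galt2* (r = 0.99 each), and *Ripk1* to *Gabarapl1*, *Phldb1* and *Fhl3* (r = 0.97 each). *Ripk3* was closest to *St3gal6* (r = 0.97), *Parp8* and *Ephx1* (r = 0.96 each), *Casp8* to *Dynlt1f*, *Mcts1* and *Gstt2* (r = 0.95, 0.94 and 0.93), and *Fadd* to *Ywhaq*, *Polr2l* and *9930111J21Rik2* (r = 0.87, 0.81 and 0.80).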

How the data were processed

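RNA of 20 libraries was measured by sequencing of TruSeq v2 libraries, which do not mark strand. The authors deposited 1 table of CPM values with Entrez identifiers, and the submitters' processing notes name GRCm38 (mm10) and edgeR. All CPM values were whole multiples of 1 read (100% within 0.01), so that whole reads were recovered. Of 25869 identifiers, 25242 were named from RefSeq and 14 from GENCODE, and 613 kept no symbol. Depth was 12474885 to 26678417 reads, and intervals and floors from reads cover counting error only.

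Each comparison was fitted with limma 3.58.1 (R 4.3.3) on log2(CPM + 0.1) after TMM scaling, with trended variance, over genes that passed filterByExpr of edgeR 4.0.16. Fold changes are on that scale and understate changes of low genes. P-values were adjusted over all tested genes by the Benjamini-Hochberg method, and calls had an adjusted p under 0.05. Alternatives were edgeR, DESeq2 1.42.0, limma-voom, other scaling, pseudocounts and filters, all libraries in the fit, replicate blocks and leaving out each library. The code was tested on simulated data. Tables and figures used Python 3.11.15, pandas 2.3.3 and matplotlib 3.10.9.

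The 9 genes and the lists were chosen with earlier results of these data known. From the other pathway genes, at most 2 called genes a list and direction with the largest change and no overlap between groups were named, and for each member the 3 most correlated genes. One gene that this rule names is not reported here. The labels number the MEF lines, which pairs libraries of the *dCas9a-SAM* KI/+ groups by line. Over 16483 genes, the correlation between groups of the differences between lines was 0.273 for sgNT and sg*Bcl-2* MEFs, -0.0481 for sgNT and no sgRNA, and -0.105 for no sgRNA and sg*Bcl-2*. For WT it was 0.0510 with sgNT, 0.0379 with no sgRNA and 0.166 with sg*Bcl-2*.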

Additional observations from a re-analysis of the deposited data

Results flagged for a closer look

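*Fas* stood apart in lymphoma line 17_213_IgMp, at 0.299 CPM (6 reads), where the nearest of the other lines was at 0.0406 CPM, both among the 4 IgM-positive lines and among all 6 lines. *Mlkl* stood apart in line 14_179_IgMp, at 0.365 CPM (9 reads), where the next of the 6 lines was at 0.0996 CPM. Each gap exceeded the 95% critical value of Dixon's test for its group. In all, 27 groups of 4 or 6 values were examined and 3 passed, 2 of which rest on the same library. Chance alone gives about 1 in 20 where values are normally distributed. That does not hold here, since *Fas* had no read in 4 of the lines and *Mlkl* none in 3, so a few reads are enough to be flagged.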

How the results depend on the processing

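Of 128 alternative counts of called members, 107 stayed within 1.5 times the main count. Leaving out each library in turn gave 0 to 7 called members for sgNT against WT and 0 to 6 for no sgRNA against WT (7 and 6 without WT library 1, where 53.4% and 55.1% of all genes were called, and 3 and 4 without WT library 2, where 11.2% and 31.8% were), against 0 in both. It gave 0 to 1 for sg*Bcl-2* against sgNT (0 without sgNT library 1) and 0 to 1 for the IgM classes (1 only without line 16_202_IgMp), against 1 in both. With all 20 libraries in the fit, 0 members were called for sgNT against no sgRNA, 0 for sg*Bcl-2* against sgNT, 8 for lymphoma lines against preB-ALL and 3 for tumours against lines. Without a scaling factor 8 were called against preB-ALL. For the IgM classes, 0 were called by edgeR, limma-voom, with a pseudocount of 1 and without a filter. DESeq2 called 2 members for tumours against lines, with 16.5% of all genes. The cause was not tested.

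Of 1107 alternative gene results, 1010 kept their direction and call, 25 changed sign without a call in either setting (16 against WT and 9 in other comparisons), 36 gained and 31 lost a call, and 5 reversed with a call in 1 of the settings, all against WT with a library left out. *Tnfrsf10b* ran from -0.43 to 0.46 and *Ripk3* from -0.54 to 1.01 for sgNT. Without an sgRNA, *Ripk3* ran from -1.26 to 0.33, *Fas* from -0.95 to 1.52 and *Tnfrsf1a* from -0.42 to 0.52 (log2). Where a group was left with 1 library, that library was assumed to vary like the other group.

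With the MEF line as a replicate block, 5 in place of 6 members were called for sgNT against no sgRNA (*Tnfrsf10b* lost, adjusted p = 0.0612), and no other call of a member changed. Over all genes the block moved the calls from 6029 to 5403 there and from 1592 to 2148 for sg*Bcl-2* against sgNT. The mouse number of the titles as a replicate block gave 4 called members for tumours against lines, with 28.3% of all genes. Depth limited *Fas* and *Mlkl* in the lymphoma lines, where 3 reads are 0.112 to 0.149 CPM.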
